A study of Drosophila melanogaster with 24 samples.

Results

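Flies that had been fed rotenone for 7 days and then returned to plain yeast-glucose medium for 7 days (Parkinson's *Drosophila* without FMT, PWOFC) were compared with flies that had received the solvent instead and then the same plain medium (control *Drosophila* without FMT, CWOFP). FMT, fecal microbiota transplantation, is the transfer of gut microbes between flies, and neither group received it. The labels put 6 of the 24 samples of the series in this comparison, 3 whole-adult RNA libraries per group, all collected when the flies were 21 days past eclosion, which is day 14 from the start of feeding. The question it addresses is which transcripts still differ 1 week after the end of rotenone feeding, with no microbes transferred in either arm.

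All flies were of the white-eyed laboratory strain w1118, reared on the same yeast-glucose medium. Rotenone was dissolved in dimethyl sulfoxide (DMSO), and the control flies received DMSO alone. The labels give 250 µM rotenone in a protocol text shared by every group, the DMSO-fed ones included. Bottles held equal numbers of males and females, and the methods describe flies collected for RNA sequencing in equal numbers of each sex, though in a sentence that gives an age of 7 days and not the age of these groups. The number of flies behind each of these 6 libraries is therefore unsure. A library of whole adults mixes gut, ovary, testis, fat body, muscle and brain, and the PWOFC libraries can hold only flies that lived to day 14. Rotenone feeding is a toxin model, and the groups carry no genetic difference by design. A further pair of groups, PD (rotenone-fed) and CTRL (DMSO-fed), were collected on day 7 at the end of feeding, 3 libraries each. They share no library with the day 14 groups and are used below to set the 2 days side by side.

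Rotenone blocks complex I of the mitochondrial respiratory chain, the enzyme that passes electrons from NADH to ubiquinone. Chronic exposure of flies and rodents leads to loss of movement control and damage to dopaminergic neurons, and this is why it serves as a model of Parkinson's disease. In an adult fly the enterocytes of the midgut secrete large amounts of proteases and glycosidases. In females the fat body makes yolk proteins and the follicle cells of the ovary make the vitelline membrane and chorion of the egg. These tissues are abundant in a whole-fly library, and their secretory genes respond readily to food, mating and age.

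The 6 libraries held between 20719349 and 22775346 counts assigned to genes, with means of 21617791 in CWOFP and 21718609 in PWOFC (two-sided exact permutation test, p = 0.9, where the smallest p for 3 against 3 is 0.1). In a principal component analysis of the 6 libraries the first component carried 41.8% of the variance and separated the groups, with scores from −23.5 to −19.3 in CWOFP and scores of 27.9, 26.4 and 8.37 in PWOFC. PWOFC replicate 3 therefore lay nearest to the controls. The second component, with 24.1%, was widest within CWOFP, from −30.7 in replicate 3 to 20.1 in replicate 2. CWOFP replicates 1 and 3 also contained transcripts of genes for pupal and larval cuticle, at summed levels of 289 and 202 CPM (a gene's counts relative to the total of its library, with totals scaled by the trimmed mean of M-values, TMM), against 13.6 CPM in CWOFP replicate 2 and 14.3 to 44.4 CPM in PWOFC. This list of cuticle genes was drawn up after the values had been seen. Replicates 1 and 3 of CTRL also stood at 88.5 and 84.6 CPM. The common biological coefficient of variation was 0.302. Leaving out 1 library often moved a list's count of calls by over 1.5 times. Many such counts are given beside the list, but not all of them. A list with no such count beside it is therefore not shown to be stable.

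Few genes passed the main test and many shifted modestly. Of 12297 genes tested with the quasi-likelihood test of edgeR, 4 (0.0325%) were differentially expressed transcripts (DETs) at an adjusted p below 0.05 and an absolute log2 fold change above 1, 2 higher (0.0163%) and 2 lower (0.0163%) in PWOFC. With no adjustment, 3097 genes had p below 0.05, of which 1389 were higher and 1708 lower. DESeq2, the tool the study used, called 480 of the same genes (3.90%), of which 140 were higher (1.14%) and 340 lower (2.76%) in PWOFC. Leaving out CWOFP replicate 1 gave 912 DESeq2 calls over the whole table and leaving out PWOFC replicate 1 gave 184, against 498 with all 6 libraries. In the text that follows, a gene said to be called by DESeq2 did not pass edgeR unless this is stated. In 3817 genes (31.0%) all 3 libraries of one group lay above all 3 of the other, 1933 with PWOFC above (15.7%) and 1884 with PWOFC below (15.3%). The share of these genes with PWOFC above was 50.6% and depended on the scaling, with 55.6% under relative log expression and 35.3% under upper quartile scaling. The median log2 fold change over all tested genes was −0.05 and the median size was 0.28.

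The 4 DETs of edgeR were a protease, a maltase, an odorant-binding protein and *CG31077*. *CG18179* (FBgn0036023, BDGP6 chromosome arm 3L from 9639271 to 9640140, plus strand), a predicted serine protease, stood at 0.280, 0.316 and 0.363 CPM in CWOFP and at 17.97, 16.4 and 11.95 CPM in PWOFC. These values rest on 6, 7 and 8 counts in the CWOFP libraries and on 375, 343 and 268 counts in the PWOFC libraries. The log2 fold change was 5.57 ± 0.31 (SE; edgeR, adjusted p = 0.00191). In CTRL flies of day 7 it lay between 34.1 and 79.3 CPM, so CWOFP held the lowest level of these groups.

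*CG31077* (FBgn0051077, 3R from 26999752 to 27002961, plus strand) stood at 9.57, 7.40 and 11.7 CPM in CWOFP and at 69.0, 48.9 and 66.6 CPM in PWOFC, a log2 fold change of 2.68 ± 0.21 (SE; edgeR, adjusted p = 0.00897). Its levels in CTRL, 57.0 to 87.2 CPM, overlapped those of PWOFC, while those in PD, 74.7 to 93.6 CPM, lay above every PWOFC library, and CWOFP was again the low group. *Mal-B1* (FBgn0032381, 2L from 11847226 to 11849169, plus strand), a maltase that splits disaccharides into glucose, ran the other way. It stood at 101.4, 105.6 and 96.6 CPM in CWOFP and at 22.8, 30.2 and 28.2 CPM in PWOFC, a log2 fold change of −1.90 ± 0.12 (SE; edgeR, adjusted p = 0.00327). On day 7 it was 216 to 289 CPM in PD and 33.7 to 103 CPM in CTRL, so the rotenone-fed group was the high one while rotenone was in the food.

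*Obp19d* (FBgn0011280, X from 20419613 to 20420979, plus strand) encodes an odorant-binding protein, a small secreted carrier of the antenna and other sense organs. It stood at 100.3, 100.8 and 108.7 CPM in CWOFP and at 41.1, 46.04 and 52.0 CPM in PWOFC, a log2 fold change of −1.16 ± 0.11 (SE; edgeR, adjusted p = 0.0227). No exon of these 4 genes overlaps an exon of another annotated gene. In every one the 2 groups were clear of each other by more than the spread within either group. *CG18179* passed the filter on low counts only through PWOFC, so for it this separation is no separate support. All 4 were called again with another scaling or with limma-voom. With all 6 groups in the fit 2 of the 4 were called, and 3 when every library had to hold at least 10 counts. Leaving out a PWOFC library lost some of them: 2 of the 4 were called without replicate 1 and 1 without replicate 3.

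**Figure D1:**
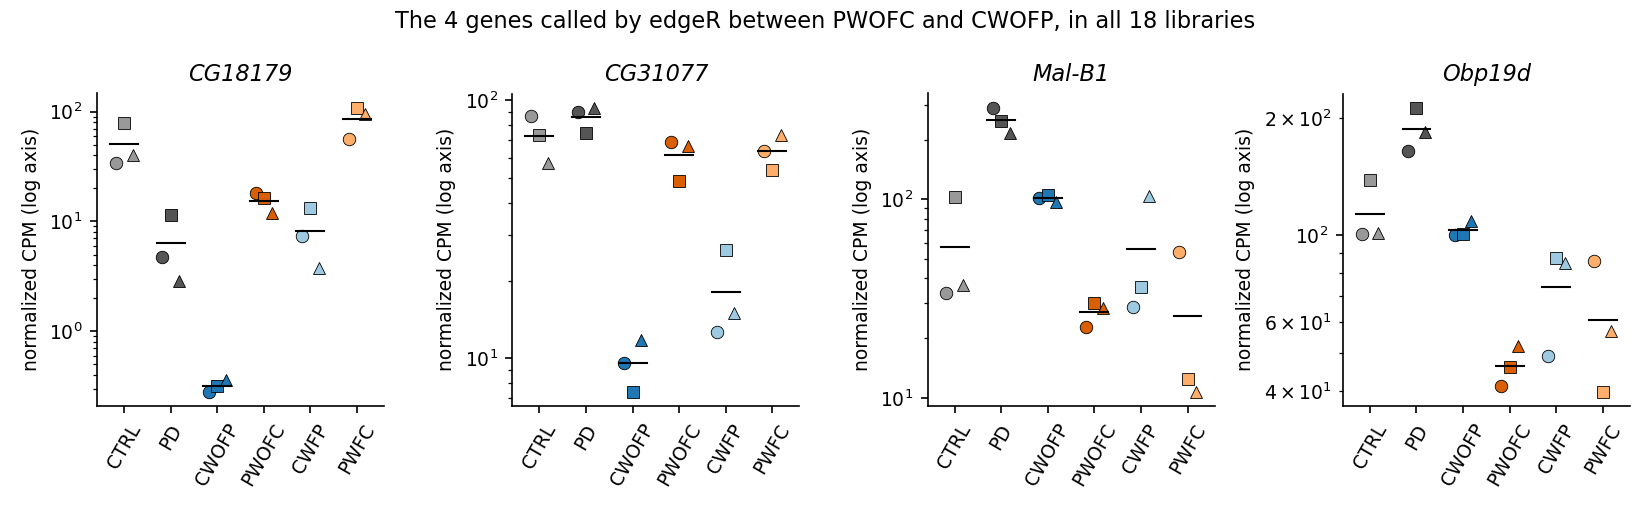
Normalized CPM on a log axis for the 4 genes called by edgeR in all 18 libraries, with 1 marker per library (shape gives the replicate) and a bar at the group mean. CTRL and PD are the day 7 groups, and CWFP and PWFC are control and rotenone-fed flies that received gut content from the other arm before day 14. *CG18179* and *CG31077* are higher in the 3 PWOFC than in the 3 CWOFP libraries, and *Mal-B1* and *Obp19d* are lower.

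Digestive proteases of the Jonah family were higher in PWOFC than in CWOFP. These chymotrypsin-like enzymes are secreted by midgut enterocytes and break down food protein. Of 15 tested Jonah genes all 15 had a positive log2 fold change, with a median of 2.22, and 12 were called higher and 0 lower by DESeq2. The summed level of the family was 3419, 4071 and 3186 CPM in CWOFP and 11700, 11560 and 7351 CPM in PWOFC, so the groups did not overlap. On day 7 it was 16610, 18980 and 15990 CPM in CTRL and 10640, 12530 and 8798 CPM in PD. After transfer of gut content it was 6540 to 10090 CPM in CWFP and 15460 to 19290 CPM in PWFC. CWOFP was thus the lowest of these groups, while PWOFC overlapped PD and lay below CTRL. The count of DESeq2 calls was 5 without PWOFC replicate 2, 7 without CWOFP replicate 2 or PWOFC replicate 1, and 14 without PWOFC replicate 3. No Jonah gene was called by edgeR. In 8 of the 15 (53.3%) the libraries did not overlap, all with PWOFC above, against 15.7% of all genes. DESeq2 called 1.14% of all genes higher.

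The 2 Jonah genes with the highest mean CPM gave like values in every library of a group. *Jon65Aiii* stood at 1013, 1243 and 953 CPM in CWOFP and at 2730, 2260 and 2251 CPM in PWOFC, a log2 fold change of 1.17 ± 0.17 (SE). *Jon65Aiv* stood at 1409, 2160 and 1478 CPM in CWOFP and at 4404, 3586 and 3939 CPM in PWOFC, a log2 fold change of 1.24 ± 0.21 (SE). Both were called by DESeq2 and all PWOFC libraries lay above all CWOFP libraries.

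The neighbouring pair *Jon25Bi* and *Jon25Bii* on 2L differed far more but unevenly. *Jon25Bii* stood at 4.29, 2.08 and 2.31 CPM in CWOFP and at 174, 226 and 15.3 CPM in PWOFC (log2 fold change 5.58 ± 1.18 SE; DESeq2 adjusted p = 5.39e-06, edgeR adjusted p = 0.125). *Jon25Bi* followed with 8.08, 1.22 and 1.68 CPM against 251, 245 and 17.3 CPM. PWOFC replicate 3 was high against the controls for both genes but more than 10-fold below the other PWOFC libraries. The same library was the lowest of PWOFC for *Jon99Cii*, at 296 CPM beside 1667 and 1970 CPM, where it fell inside the CWOFP range of 92.7 to 351 CPM. Neighbouring Jonah genes can be close copies, and how reads matching several copies were counted is not given in the sources used here.

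The LMan genes, which encode lysosomal alpha-mannosidases that trim mannose from glycoproteins, were also higher in PWOFC than in CWOFP. All 6 members had every PWOFC library above every CWOFP library, against 15.7% of all genes. DESeq2 called 5 of them higher, against 1.14% of all genes, and the median log2 fold change was 2.90. The calls were 3 without CWOFP replicate 3, PWOFC replicate 1 or PWOFC replicate 2. Their summed level was 248, 337 and 211 CPM in CWOFP and 958, 1062 and 538 CPM in PWOFC. On day 7 it was 1529, 1407 and 1718 CPM in CTRL and 1172, 1413 and 1676 CPM in PD. CWOFP was again the lowest of these groups, and PWOFC lay below CTRL and PD. *LManVI* stood at 43.3, 43.6 and 21.7 CPM in CWOFP and at 334, 390 and 107 CPM in PWOFC, a log2 fold change of 2.94 ± 0.58 (SE). *LManII* was more even, at 150, 246 and 160 CPM against 382, 383 and 328 CPM. *LManIV* had 3, 0 and 0 counts in CWOFP and 53, 98 and 52 counts in PWOFC, and with only 3 control counts no fold is given. It passed the filter on low counts only through PWOFC. Its place among the 6 members and the 5 calls is therefore no separate support.

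Other digestive enzymes did not follow as a block. Both tested amylases, which cleave starch, were called higher by DESeq2, and *Amy-p* stood at 145, 67.8 and 46.05 CPM in CWOFP and at 296, 194 and 402 CPM in PWOFC. On day 7 *Amy-p* stood above both of these groups, at 584 to 979 CPM in CTRL and 1237 to 1437 CPM in PD. *Amy-p* and *Amy-d* are near-identical neighbours, so their reads cannot be told apart with certainty. Of 12 trypsins 1 was called higher (*thetaTry*) and 1 lower (*Try29F*, which shares exon bases on its strand with *CG18661*), with a median of 0.54, with 3 called higher without CWOFP replicate 1 or PWOFC replicate 3 and 0 without PWOFC replicate 1 or 2. The 10 maltases had a median of −0.35 with *Mal-B1* as the only call, and the median was between −0.58 and −0.06 with a library left out. Of 5 lysozymes, *LysP* was higher at 35.5 to 46.1 CPM in PWOFC and 13.3 to 20.4 CPM in CWOFP, while *LysX* was lower, at 3.25 to 6.65 CPM against 11.2 to 16.8 CPM, and without PWOFC replicate 3 the lysozymes called higher were 4. Of 8 alkaline phosphatases 2 were called higher, among them *Alp10*, and 1 when CWOFP replicate 1 or 3 or PWOFC replicate 1 or 2 was left out. The gut is bulk tissue here, so more enterocytes or more enzyme RNA per enterocyte cannot be told apart, as for every tissue below.

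**Figure D2:**
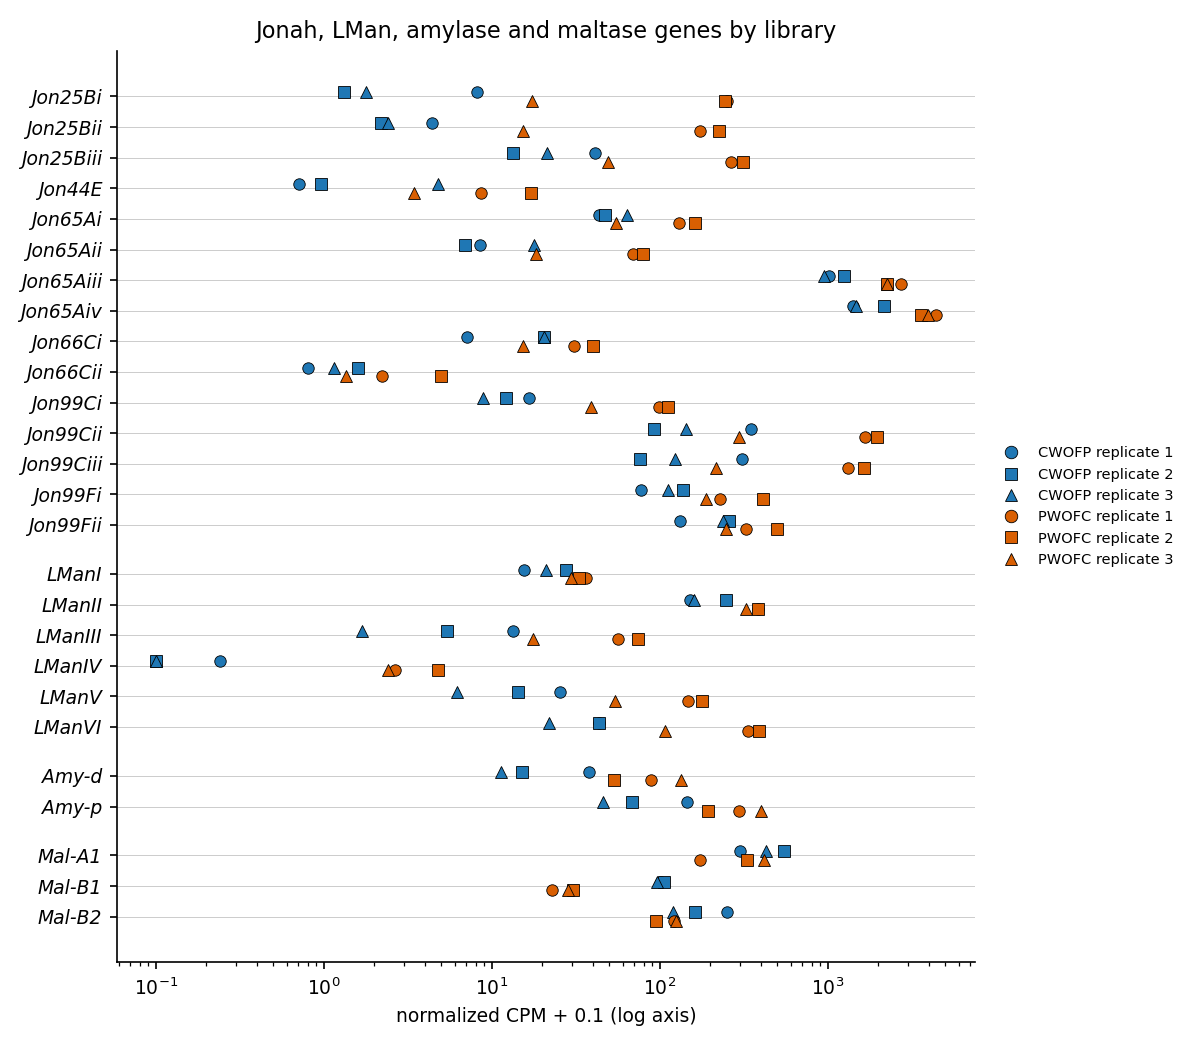
Normalized CPM plus 0.1 on a log axis for Jonah, LMan, amylase and maltase genes, with 1 marker per library (CWOFP blue, PWOFC orange). Most Jonah and LMan genes are higher in PWOFC, with PWOFC replicate 3 (orange triangle) often nearest to CWOFP, and *Mal-B1* lies the other way.

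Many genes of egg production were higher in PWOFC, most evenly those of the yolk list. All 4 genes of the list of yolk proteins and *fit* were called higher by DESeq2 and lay above without overlap. The shares over all genes were 1.14% and 15.7%. *Yp1*, *Yp2* and *Yp3* encode the yolk proteins that the female fat body and follicle cells load into the oocyte, and *fit* is a female-specific gene of the fat body around the head. *Yp2* stood at 4358, 4480 and 2408 CPM in CWOFP and at 10470, 11190 and 10090 CPM in PWOFC, a log2 fold change of 1.498 ± 0.27 (SE; DESeq2 adjusted p = 2.57e-07). *fit*, whose exons overlap those of *asRNA:CR45046* and *CG31465*, stood at 3.55, 11.6 and 5.76 CPM against 52.0, 42.8 and 62.5 CPM, a log2 fold change of 2.91 ± 0.44 (SE). The summed level of the 4 genes was 10460, 11530 and 5498 CPM in CWOFP and 24830, 26880 and 22720 CPM in PWOFC.

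Eggshell genes, expressed by follicle cells late in oogenesis, had a median log2 fold change of 1.59 over 27 tested members, 26 of them positive. Their summed level overlapped between groups, at 7923, 6161 and 4477 CPM in CWOFP and 20690, 20360 and 6595 CPM in PWOFC. DESeq2 called 8 of the 27 genes higher and 0 lower, against 1.14% and 2.76% of all genes. The calls were mainly genes of the vitelline membrane, the inner coat laid down before the chorion. *Vml*, a component of that membrane, stood at 126, 108 and 65.9 CPM in CWOFP and at 484, 633 and 325 CPM in PWOFC, a log2 fold change of 2.26 ± 0.33 (SE; DESeq2 adjusted p = 1.70e-10). Chorion genes were split by library. *Cp36*, a major chorion protein, stood at 1827, 736 and 860 CPM in CWOFP and at 2749, 3337 and 132 CPM in PWOFC, and *Cp38* was at 2552, 902 and 1306 CPM against 3962, 4638 and 190 CPM. PWOFC replicate 3 was lower than every control library for both, and neither gene was called. Without that library DESeq2 called 14 eggshell genes higher, with a median of 1.95, and without PWOFC replicate 2 the median was 0.91.

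Of 28 ovary germline genes 0 were called by DESeq2, but 14 had every PWOFC library above every CWOFP library and 1 the reverse, against 15.7% and 15.3% of all genes, with a median log2 fold change of 0.32. *osk*, which anchors the posterior germ plasm, stood at 114, 141 and 91.0 CPM in CWOFP and at 228, 205 and 162 CPM in PWOFC, but overlaps *lncRNA:osk*. *dhd*, a maternal thioredoxin, was at 1135, 1101 and 1016 CPM against 1676, 1366 and 1367 CPM.

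**Figure D3:**
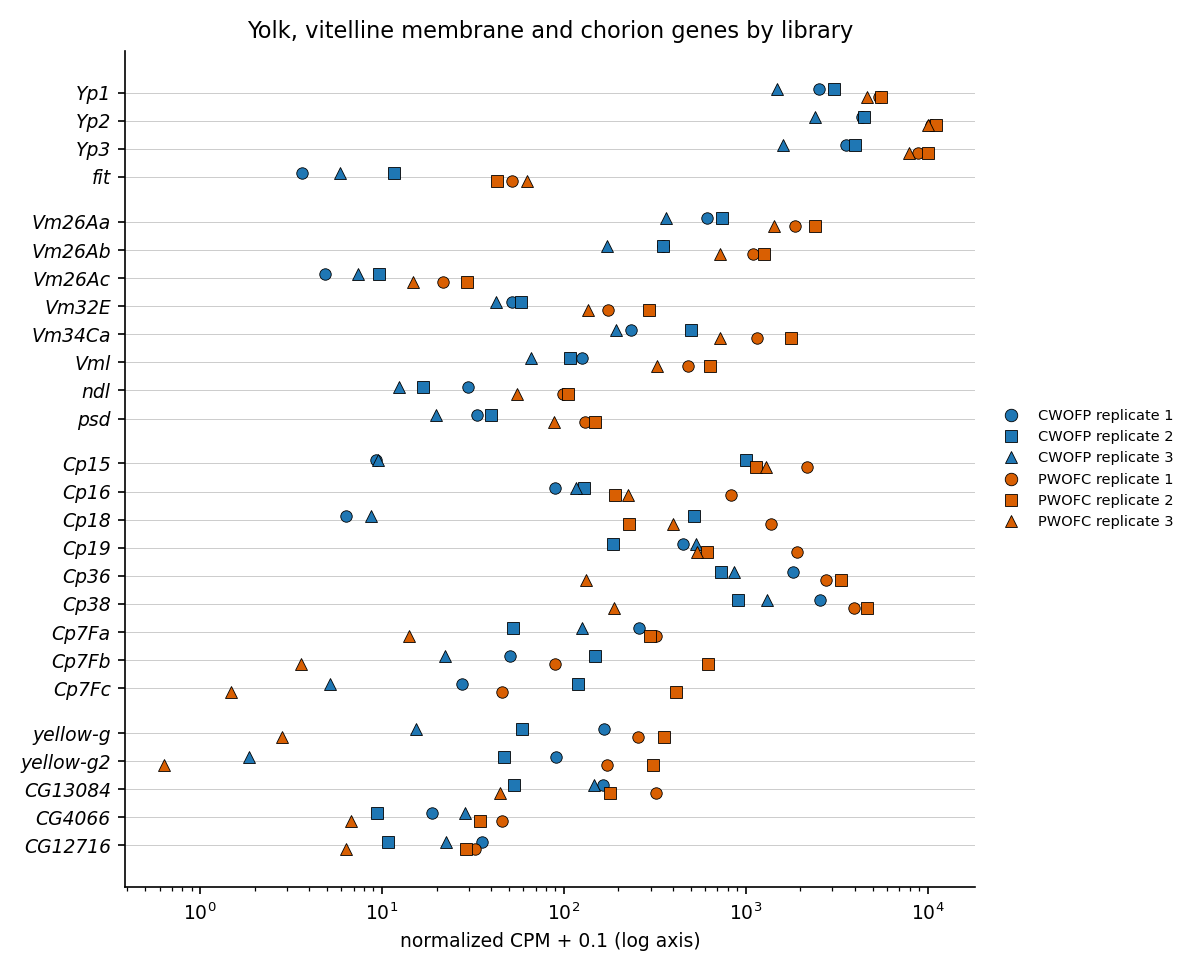
Normalized CPM plus 0.1 on a log axis for yolk, vitelline membrane, chorion and other eggshell genes, with 1 marker per library (CWOFP blue, PWOFC orange). The yolk genes and *Vml* are higher in all 3 PWOFC libraries, while *Cp36* and *Cp38* lie below every CWOFP library in PWOFC replicate 3 (orange triangle).

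Genes of the male tract were lower or mixed. Of 37 testis genes 34 had a negative log2 fold change, the median was −0.73, and 6 were called lower and 0 higher by DESeq2. Over all genes DESeq2 called 2.76% lower. In 27.0% of the testis genes every PWOFC library lay below every CWOFP library, against 15.3% of all genes. The lower calls of testis genes were 14 without CWOFP replicate 1, 9 without PWOFC replicate 2, 4 without CWOFP replicate 3 and 3 without PWOFC replicate 1. Their summed level was 1526, 3005 and 3059 CPM in CWOFP and 1064, 1957 and 1503 CPM in PWOFC, so the groups overlapped through CWOFP replicate 1. *Mst84Dc*, a sperm tail protein gene, stood at 21.3, 21.7 and 30.4 CPM in CWOFP and at 5.70, 11.02 and 8.21 CPM in PWOFC, a log2 fold change of −1.56 ± 0.27 (SE; DESeq2 adjusted p = 3.63e-05). Accessory gland genes, which make seminal fluid proteins, went both ways. *Ebp*, the ejaculatory bulb protein of the mating plug, was higher at 148, 197 and 225 CPM in PWOFC against 33.6, 16.9 and 56.9 CPM in CWOFP, and *Acp26Ab* was lower at 7.28, 21.9 and 19.4 CPM against 50.9, 110 and 42.7 CPM. Of the 60 tested, DESeq2 called 4 higher and 5 lower, against 1.14% and 2.76% of all genes, with a median of −0.56. The balance turned with single libraries, to 9 higher and 2 lower without CWOFP replicate 3, 2 and 1 without PWOFC replicate 1, 2 and 14 without PWOFC replicate 2, and 2 and 7 without CWOFP replicate 1. The 7 dosage compensation genes, some of which act only in males, had a median of 0.02 and no call by either tool. The yolk and eggshell lists and the testis list thus had medians of opposite sign between the same libraries, and the part that the sex ratio of the flies has in either was not tested.

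A small set of low genes was detected in PWOFC and near 0 in CWOFP. Of 10 tested Enhancer of split genes, the targets of Notch signalling that hold back neural fate, 6 were called higher by DESeq2. Several members, such as those below, passed the filter on low counts only through PWOFC, so their direction was set by the filter. The summed level of the list overlapped between groups, at 33.1, 20.2 and 23.2 CPM in CWOFP and 36.3, 22.2 and 46.3 CPM in PWOFC. *E(spl)m4-BFM* had 2, 0 and 12 counts in CWOFP and 89, 68 and 154 counts in PWOFC. *Brd*, a bearded-family Notch pathway gene, had 0, 0 and 5 counts against 43, 17 and 88, and its neighbour *BobA* had 0, 0 and 9 against 111, 40 and 111. *wor*, a zinc finger gene of neuroblasts, had 0, 1 and 1 counts against 31, 13 and 35. All 3 PWOFC libraries lay above all 3 CWOFP libraries for each of these genes. Since the genes passed the filter only through PWOFC, this direction is no separate support. *CG12011* had 0 counts in every CWOFP library and 63, 27 and 174 in PWOFC, a mean of 4.02 CPM that is at least 88.0-fold higher than the 0.0457 CPM that 3 counts over the group would give. It too passed the filter only through PWOFC, so this fold describes a gene selected as high there. Single libraries of the other day 14 groups varied widely for such genes. In PWFC *E(spl)m4-BFM* stood at 10.6, 0.316 and 0.198 CPM and *Brd* at 9.19, 0.158 and 0 CPM. *CG12011* stood at 29.6, 0.0527 and 16.1 CPM in PWFC. In CWFP, never fed rotenone, it stood at 17.9, 0.0479 and 0.0483 CPM.

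The Enhancer of split genes, *Brd* and *wor* are best known from the embryo. A list of 55 early zygotic genes, drawn up after the values had been seen, held 49 tested members, of which 28 were also tested on day 7. DESeq2 called 14 higher and 1 lower, against 1.14% and 2.76% of all genes, and the median log2 fold change was 0.66. Members that passed the filter on low counts only through PWOFC had their direction set by it. The calls and the median are therefore no evidence that the list as a whole was higher. Without 1 library the median ran from 0.25 (CWOFP replicate 2) to 1.56 (CWOFP replicate 3), and the higher calls from 8 (PWOFC replicate 1) to 18 (CWOFP replicate 3). Its summed level overlapped between groups, at 230, 215 and 416 CPM in CWOFP and 439, 487 and 346 CPM in PWOFC.

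Receptors of the nervous system were mostly lower in PWOFC, by small amounts. Of 74 tested transmitter and peptide receptors 70 had a negative log2 fold change, the median was −0.61, and 39 (52.7%) had every PWOFC library below every CWOFP library, against 15.3% of all genes. DESeq2 called 4 of them lower and 0 higher, against 2.76% and 1.14% of all genes. The lower calls were 0 without PWOFC replicate 2, 1 without CWOFP replicate 3 or PWOFC replicate 1, 2 without CWOFP replicate 2 and 9 without PWOFC replicate 3. *CCKLR-17D1*, a receptor for sulfakinin, a satiety peptide, stood at 2.15, 1.35 and 2.45 CPM in CWOFP and at 0.527, 0.620 and 0.892 CPM in PWOFC. The summed level was 541, 458 and 526 CPM against 346, 332 and 408 CPM. The 33 synaptic and neuronal genes had 0 calls, 9 below (27.3%) and 1 above, a median of −0.25 and overlapping sums of 950 to 1257 CPM in CWOFP and 958 to 1102 CPM in PWOFC.

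Of 29 tested odorant-binding protein genes 8 were called lower and 0 higher by DESeq2, *Obp19d* among them. Over all genes DESeq2 called 2.76% lower. The median of the list was −0.52 and lay between −0.74 and −0.31 with a library left out. *Obp69a*, whose exons overlap *CG32104* on the other strand, stood at 3.03, 1.67 and 2.99 CPM in CWOFP and at 0.719, 0.954 and 0.625 CPM in PWOFC. Of 30 tested chemosensory receptors, out of 187 in the table, 3 were called lower and 1 higher (0 higher without CWOFP replicate 1 or 3 or PWOFC replicate 1 or 2). Of those tested, 53.3% had every PWOFC library below every CWOFP library, against 15.3% of all genes. The part of the filter on low counts in this share was not tested. The summed level of the list overlapped between groups, at 81.14 to 83.41 CPM in CWOFP. PWOFC replicates 1 and 3 lay below this range, at 60.14 and 57.36 CPM, and PWOFC replicate 2 lay above it. *Gr98a*, a gustatory receptor, was lower at 1.34, 1.67 and 0.580 CPM in PWOFC against 3.36, 5.32 and 6.48 CPM, and *Ir7c*, an ionotropic receptor, was higher at 22.7, 44.0 and 17.1 CPM against 7.00, 19.3 and 7.21 CPM, with overlapping libraries.

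Dopamine and parkinsonism genes showed no call by either tool. Of 14 genes of dopamine synthesis, transport and reception, the median log2 fold change was −0.39, between −0.60 and −0.15 with a library left out, and DESeq2 called 2 lower without CWOFP replicate 2. *ple* encodes tyrosine hydroxylase, the rate-limiting enzyme of dopamine synthesis, and stood at 57.7, 16.0 and 62.4 CPM in CWOFP and at 17.6, 20.99 and 23.4 CPM in PWOFC, a log2 fold change of −1.13 ± 0.50 (SE; edgeR adjusted p = 0.221). CWOFP replicates 1 and 3 are the high libraries, and they are also the ones with cuticle transcripts, in whose hardening this enzyme acts too. The part of those transcripts in this difference was not tested. The 23 fly counterparts of human parkinsonism genes had a median of 0.10. *park*, the ubiquitin ligase Parkin, was at 3.69, 4.38 and 5.03 CPM against 5.37, 4.29 and 4.64 CPM, with overlapping groups and exons shared with genes on the other strand.

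Of 39 nuclear genes for subunits of complex I, the target of rotenone, 0 were called by DESeq2 or edgeR, and the median log2 fold change was −0.09. All PWOFC libraries lay above in 2 (5.1%) and below in 3 (7.7%), both under the shares of all genes, 15.7% and 15.3%. Without CWOFP replicate 1, 3 were called lower by DESeq2. *ND-49*, a core subunit, stood at 200, 220 and 209 CPM in CWOFP and at 250, 247 and 277 CPM in PWOFC, the highest log2 fold change of the list at 0.30 ± 0.09 (SE; edgeR adjusted p = 0.142). Of 46 genes of complexes III, IV and V 4 were called lower by DESeq2, against 2.76% of all genes. The median was −0.11, with 9 below (19.6%) and 2 above (4.3%). The calls were 0 without CWOFP replicate 3 or PWOFC replicate 1, 1 without CWOFP replicate 2, 2 without PWOFC replicate 3 and 8 without CWOFP replicate 1. The mitochondrial large ribosomal RNA, *mt:lrRNA*, was called lower by DESeq2, at 79640, 51730 and 128700 CPM in CWOFP and 36540, 44750 and 45020 CPM in PWOFC. It was most abundant in CWOFP replicate 3.

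In the lists of protein folding, protein breakdown, glycolysis and fat metabolism 0 genes were called by either tool with all 6 libraries. Many lay clear of overlap with PWOFC above. Over all genes tested 15.7% lay above in this way and 15.3% below. In 10 of 15 genes for chaperones of the endoplasmic reticulum, where secreted proteins fold, every PWOFC library lay above every CWOFP library, with 0 the other way and a median of 0.31. *Hsc70-3*, the BiP chaperone, stood at 562, 688 and 691 CPM in CWOFP and at 1168, 1177 and 916 CPM in PWOFC, and *Pdi*, protein disulfide isomerase, at 599, 627 and 538 CPM against 881, 869 and 876 CPM. Their DESeq2 adjusted p-values were 0.000184 and 3.99e-06 with log2 fold changes of 0.75 and 0.57, so neither passed the threshold of 1. The proteasome had 20 of 34 genes above and 1 below, with a median of 0.17. Glycolysis had 9 of 17 above and 1 below, lipid synthesis and storage 10 of 24 above and 0 below, and fatty acid oxidation 7 of 13 above and 0 below.

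*apolpp*, the apolipoprotein of the main lipid carrier of the haemolymph, stood at 958, 1549 and 868 CPM in CWOFP and at 2091, 2034 and 2274 CPM in PWOFC. *Men*, malic enzyme, which supplies NADPH for fat synthesis, was at 300, 495 and 338 CPM against 607, 764 and 600 CPM. *Ldh*, lactate dehydrogenase, ran the other way at 68.9, 56.9 and 72.0 CPM against 34.2, 28.5 and 52.7 CPM. The log2 fold changes of these 3 genes, 0.92, 0.80 and −0.78, stayed inside the threshold of 1. *Thor*, a translation repressor that rises under starvation, was at 556, 347 and 246 CPM in CWOFP and at 190, 168 and 273 CPM in PWOFC, with overlap through PWOFC replicate 3.

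The metallothioneins are small proteins that bind zinc, copper and cadmium. Of 7 genes 5 were called lower by DESeq2 and 6 lay below with no overlap, against 2.76% and 15.3% of all genes. Their median difference was −1.18 on the log2 scale, and 3 were called without CWOFP replicate 3. Their summed level was 715, 497 and 472 CPM in CWOFP and 226, 249 and 246 CPM in PWOFC. *MtnA*, the member with the highest mean CPM, stood at 601, 398 and 360 CPM in CWOFP and at 153, 177 and 176 CPM in PWOFC, a log2 fold change of −1.43 ± 0.20 (SE; DESeq2 adjusted p = 1.76e-07). The Turandot genes, secreted stress factors of the fat body, had 3 of 4 called lower (1 without CWOFP replicate 1, 2 without any 1 of the PWOFC replicates), and *TotA* was at 66.6, 57.6 and 41.1 CPM against 29.5, 23.9 and 23.0 CPM. Heat shock and antioxidant genes had 0 calls with all 6 libraries. Of 24 heat shock genes 15 had a negative and 9 a positive log2 fold change, with a median of −0.44 (0.11 without CWOFP replicate 1). Yet 7 (29.2%) had PWOFC above and 0 below, against 15.7% and 15.3% of all genes. The sums were 11570, 11230 and 9843 CPM in CWOFP and 13680, 12090 and 12850 CPM in PWOFC. Of 18 antioxidant genes 7 (38.9%) lay above and 3 (16.7%) below.

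Of 33 glutathione S-transferases 2 were called lower, among them *GstD5*, at 1.34, 2.53 and 2.68 CPM in PWOFC against 22.6, 6.72 and 3.08 CPM in CWOFP, where the high value is CWOFP replicate 1. Of 80 cytochrome P450 genes 3 were called lower and of 29 UDP-glycosyltransferases 1, *Ugt35C1*, counts close to the 2.76% of all genes called lower. Without PWOFC replicate 3 the lower calls were 5 and 12 for the first 2 lists, and without PWOFC replicate 1 they were 1, 0 and 0 for the 3 lists. Medians of these 3 lists were −0.20, −0.21 and −0.11.

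The 14 antimicrobial peptide genes had a median log2 fold change of −1.04 and 1 DESeq2 call, and the 17 Bomanins, short peptides induced by the Toll pathway, had −0.97 and 1 call. Every PWOFC library lay below every CWOFP library in 14.3% and 11.8% of them, no more than the 15.3% of all genes. Summed levels overlapped, at 425.5 to 1006 CPM in CWOFP and 228.5 to 589.8 CPM in PWOFC for the peptides. For the Bomanins they were 553.5 to 1574 CPM and 280 to 897 CPM. With a library left out the medians stayed negative, from −1.75 to −0.70 and from −1.63 to −0.49, and the counts rested on PWOFC replicate 3. Without it 10 antimicrobial peptide genes and 11 Bomanins were called lower, and without CWOFP replicate 3 or PWOFC replicate 1 none was by DESeq2. *DptA*, diptericin, the peptide gene with the lowest log2 fold change, stood at 56.8, 40.4 and 140 CPM in CWOFP and at 15.0, 5.49 and 30.2 CPM in PWOFC. *PPO1*, a prophenoloxidase of crystal cells in the blood, was called higher, at 74.9, 33.6 and 28.8 CPM in PWOFC against 19.1, 12.95 and 10.02 CPM.

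Muscle genes had a median of −0.71 over 33 sarcomere genes, which was −0.15 without CWOFP replicate 3. That library's summed sarcomere level was 16370 CPM, beside 9129 and 7109 CPM in the other controls and 7443 to 8490 CPM in PWOFC. *Act79B*, an actin of leg and thorax muscle, was at 833 CPM in that library and at 55.1 to 123 CPM in the other 5, so its log2 fold change of −1.72 turned to 0.67 without it.

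**Figure D4:**
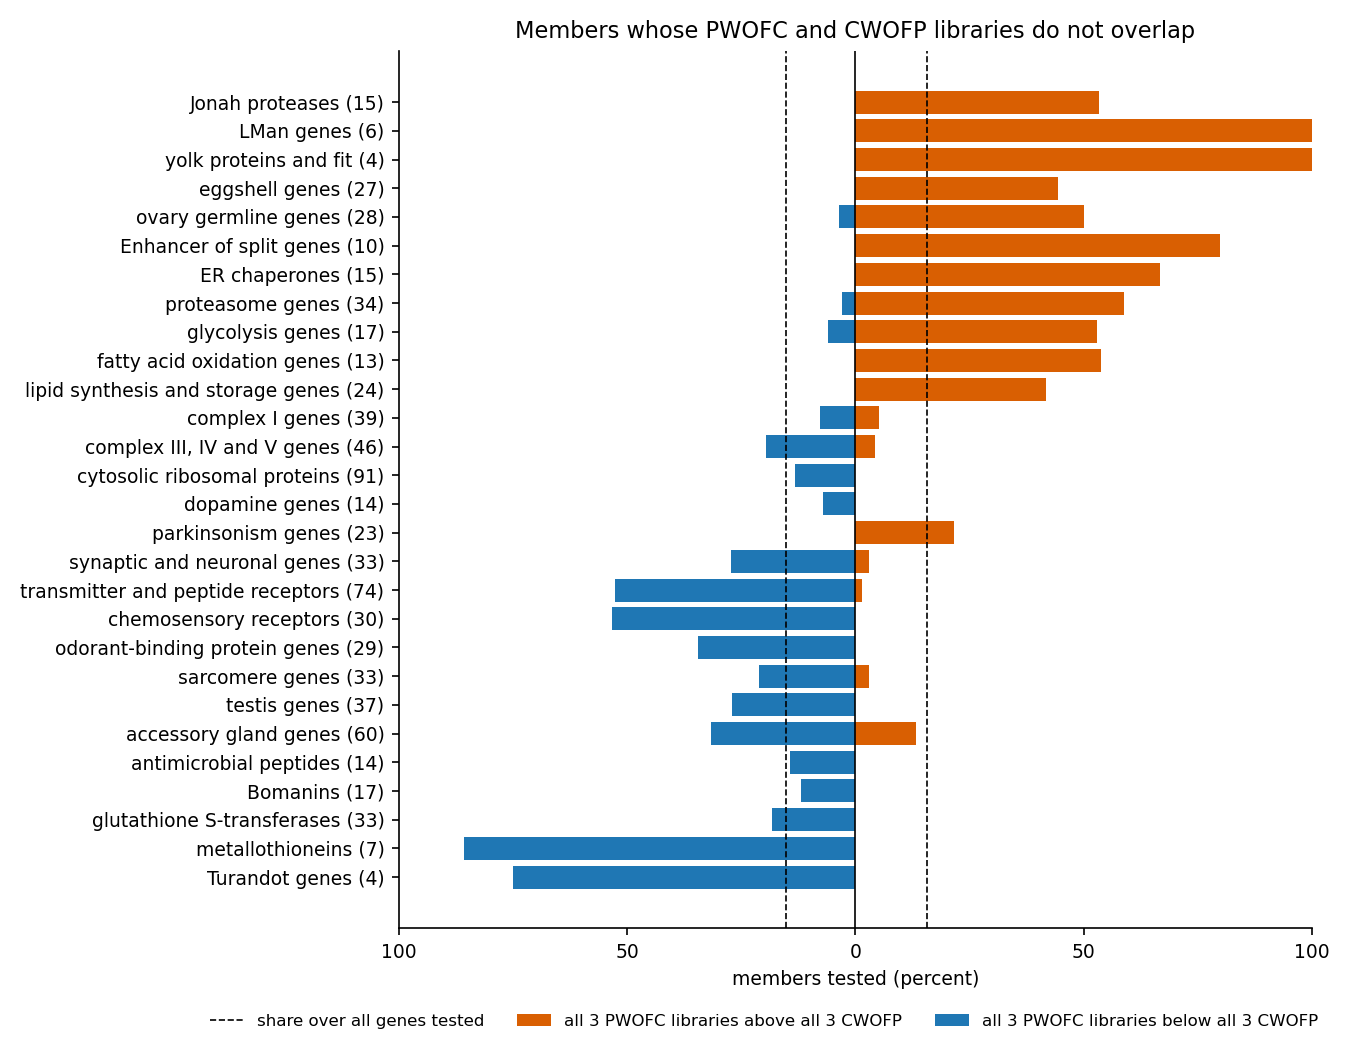
Percent of tested members of each list whose 3 PWOFC libraries all lie above (orange, right) or all below (blue, left) the 3 CWOFP libraries, with the number tested in brackets and dashed lines at the shares over all genes, 15.7% above and 15.3% below. All 6 LMan genes and all 4 genes of the yolk list lie above, and 52.7% of the receptors lie below. *LManIV* and several Enhancer of split genes passed the filter on low counts only through PWOFC.

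The effect of past rotenone on day 14 was compared with the effect of current rotenone on day 7, PD against CTRL. Many genes differed between the 2 days: of 12817 genes tested for the difference of the 2 effects, 2871 (22.4%) were called by edgeR, with the effect on day 14 higher in 1355 (10.6%) and lower in 1516 (11.8%). Of 12183 genes tested on both days 9776 (80.2%) had log2 fold changes of opposite sign. The number of calls fell to 1170 without PD replicate 1, 1554 without CTRL replicate 3 and 1575 without PWOFC replicate 1.

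Genes of egg production had effects of opposite sign on the 2 days. The eggshell genes had a median log2 fold change of −3.39 on day 7 and 1.59 on day 14. Of the 27, 18 were called as differing, all with a higher effect on day 14. The summed level of the yolk list was 23100, 14570 and 24300 CPM in CTRL and 6568, 7352 and 6364 CPM in PD on day 7. *Yp2* had a difference of log2 fold changes of 3.43 (edgeR, adjusted p = 0.00121), with 2286 to 2728 CPM in PD. PWOFC on day 14 stood above both CWOFP and PD and near CTRL. Of the 28 ovary germline genes 25 were called as differing, with a median of −0.93 on day 7.

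The Jonah genes had a median of −0.73 on day 7 and 12 of 15 were called as differing, all with a higher effect on day 14. The 6 LMan genes were all called. *CG18179* had a difference of 8.75 and *Mal-B1* one of −3.85. The maltases had 7 of 10 called with a lower effect on day 14, with a median of −0.35 on that day and of opposite sign on day 7. *MtnA* stood at 939, 1111 and 737 CPM in PD and at 259, 771 and 356 CPM in CTRL, overlapping, and had a difference of −2.26. It was 1 of 3 metallothioneins of 7 called as differing, and the list had a median of −0.06 on day 7. The receptors had a median of 0.44 on day 7 and −0.61 on day 14, with 23 of 74 called with a lower effect on day 14. Complex I genes had a median of 0.41 on day 7 and 0 of 39 called as differing by edgeR. The controls of the 2 days differ in age by 7 days, and this comparison sets effects and not levels side by side. The Turandot genes stood at a summed 5162 CPM in CTRL replicate 2 and at 92.2 and 30.4 CPM in the other CTRL libraries, and none of the 4 was called as differing.

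**Figure D5:**
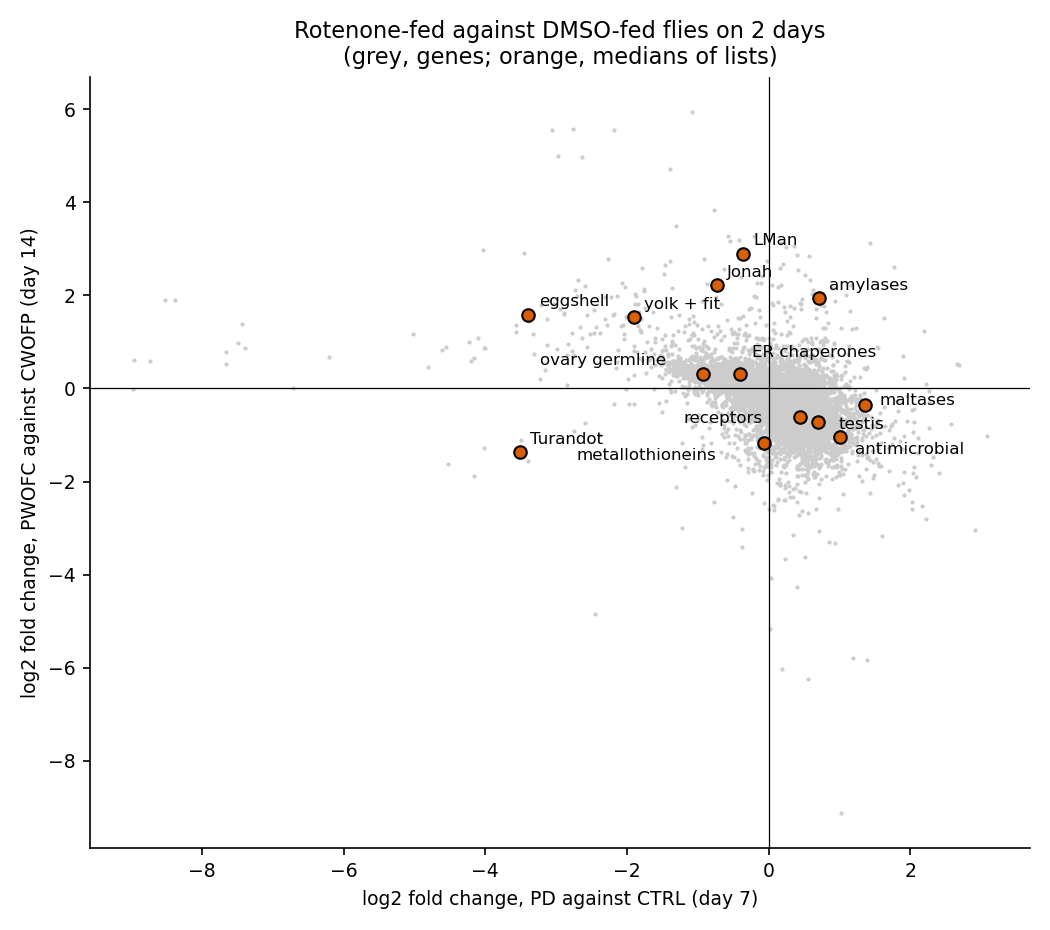
Log2 fold change of rotenone-fed against DMSO-fed flies on day 7 (horizontal axis) and on day 14 (vertical axis), with 1 grey point per gene and orange points for list medians. Egg production lists lie to the upper left, with a day 7 median of −3.39 for eggshell genes, and maltases to the lower right.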

How the data were processed

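Per the file header and the labels, the authors deposited 1 table of integer counts per gene, named by FlyBase ID, for 18 libraries of polyadenylated RNA from whole adults. The study's methods name cutadapt, HISAT2 against dm6, featureCounts and DESeq2, and the submitters' processing notes list FastQC, HISAT2, StringTie 1.3.1 and DESeq2 1.36.0. The strand setting and the handling of reads with several matches are not given in the sources used here. The labels and the methods name different sequencing platforms. The table holds 17611 genes, the columns of the authors' table are all mapped, and the 6 samples without a column were not analysed here. The paper calls the replicates biological, but no source used here says that they came from separate bottles, so the p-values measure only the spread between these libraries, which may be technical. Symbols and coordinates came from the annotation BDGP6.54, which matches dm6.

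The counts were tested with edgeR 4.0.16 in R 4.3.3: filterByExpr, TMM scaling, robust quasi-likelihood fit of the 3 PWOFC and 3 CWOFP libraries, and Benjamini-Hochberg adjustment over all genes tested. CPM are TMM-scaled and not divided by gene length. DESeq2 1.42.0 with its defaults was a second call rule, and limma 3.58.1 an alternative. The difference of the effects on day 14 and day 7 was fitted on 12 libraries. Scripts were tested on simulated counts. Intervals from counting were not used, since spread between libraries was larger: the chi-square of replicates per degree of freedom lay between 31.7 and 113. Gene lists (61, and 2 added after values were seen) and the members were chosen with earlier results of these data known. Named genes were those called by edgeR, the 12 highest and 12 lowest log2 fold changes among DESeq2 calls with no overlap and at least 10 counts in each library of the higher group, for each list the highest, the lowest and the 2 most abundant tested genes, and genes the paper names. Genes outside this rule were chosen after their values were seen. Alternatives were other scalings, filters, tools, samples in the fit, the replicate block and leaving out each library.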

Additional observations from a re-analysis of the deposited data

Results flagged for a closer look

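The effect of rotenone feeding differed between day 14 (PWOFC against CWOFP) and day 7 (PD against CTRL) in 2871 genes by the test of the difference itself in edgeR. The values below are differences of log2 fold changes, day 14 minus day 7, of genes named in the text that were among these 2871. A positive value means that rotenone-fed flies stood higher against their controls on day 14 than on day 7. No explanation was tested for any of them.

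Among the genes called by edgeR on day 14, the difference was 8.75 for *CG18179*, 2.60 for *CG31077*, −3.85 for *Mal-B1* and −1.70 for *Obp19d*. Digestive genes gave 7.89 for *Jon25Bi*, 8.49 for *Jon25Bii*, 4.28 for *Jon99Cii*, 4.26 for *Jon99Ciii*, 2.34 for *Jon99Fi*, 2.03 for *Jon65Ai*, 1.81 for *Jon65Aiii* and 2.04 for *Jon65Aiv*. The mannosidases gave 3.48 for *LManVI*, 1.59 for *LManII* and 1.07 for *LManI*. Other gut enzymes gave 1.60 for *Amy-d*, 2.21 for *thetaTry*, −2.19 for *Mal-A1* and 1.06 for *Alp10*.

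Female genes were positive, with 2.33 for *Yp1*, 3.43 for *Yp2*, 3.69 for *Yp3*, 6.48 for *fit*, 4.48 for *Vml*, 2.77 for *osk* and 1.35 for *dhd*. Of the genes near 0 in CWOFP, the fitted difference was 9.45 for *Brd*, 9.48 for *BobA*, 7.30 for *E(spl)m4-BFM*, 9.20 for *CG12011*, 6.23 for *CG9988* and 7.17 for *LManIV*. Where a group held few or no counts such a value depends on the prior count and is no bound. Among male genes it was −2.46 for *Mst84Dc*, −2.10 for *Acp26Ab* and 2.62 for *Ebp*.

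Receptor and chemosensory genes gave −2.04 for *CCKLR-17D1*, −2.12 for *Gr98a*, −2.15 for *Obp69a* and 4.12 for *Ir7c*. Metal and detoxification genes gave −2.26 for *MtnA*, −2.51 for *MtnE*, −4.09 for *GstD5*, −2.53 for *Cyp6t3*, −2.55 for *Ugt35C1* and −3.98 for *Ugt37A2*. Blood, protein folding and metabolic genes gave 2.11 for *PPO1*, 1.68 for *Hsc70-3*, 1.11 for *Pdi*, 1.02 for *Rpn1*, 1.16 for *Rpn2*, 1.31 for *Men*, 1.24 for *Mtpalpha*, −1.66 for *Ldh*, 1.94 for *apolpp* and −1.91 for *Thor*. The muscle genes *Mlc2* and *Sclp* gave −1.86 and −3.46. *Vajk2* and *Vajk3*, cuticle genes detected mainly in CWOFP replicates 1 and 3, gave −6.87 and −6.10, and *Arc1* gave −2.65.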

How the results depend on the processing

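The 4 genes called by edgeR on day 14 became 145 (94 higher, 51 lower) when PD and CTRL shared the fit, a setting chosen after seeing the data, 38 with all 6 groups in the fit and 498 with DESeq2. Leaving out 1 library gave 2 to 23 edgeR calls. DESeq2 called 218 genes with all 6 groups in the fit and 184 to 912 with a library left out. Calls of the difference between days ranged from 1170 to 3862 with a library left out. Same-numbered libraries did not all deviate together from their group means. The correlations were 0.338, 0.159 and −0.113 for replicates 1, 2 and 3, and −0.381 to 0.264 between libraries of unlike number. The numbers were not taken to pair the samples, but so few values cannot settle whether they do. The replicate block gave 43 edgeR calls, 481 DESeq2 calls and 2796 calls of the difference between days. Among 90 named genes, 1206 of 1336 values kept their direction and side of the threshold, 8 fell below it and 118 moved past it. *Mul1*, at −0.08, reversed to 0.04 with 4 groups in the fit, 0.05 with all 6 groups and 0.04 without CWOFP replicate 2, with −0.17 to 0.04 over the libraries left out in turn, and *Act79B* ran from −2.22 without CWOFP replicate 2 to 0.67 without CWOFP replicate 3. The cause of these changes was not tested. Of 945 list medians under alternatives 52 changed sign, mostly lists near 0. The upper quartile scaling moved the median of all genes to −0.12. Precision was limited by 3 libraries per group and a biological coefficient of variation of 0.302.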

Other observations

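*Arc1*, which encodes a capsid-forming protein that carries RNA between cells, stood at 3688, 2211 and 905 CPM in CWOFP and at 330, 438 and 869 CPM in PWOFC, with CWOFP replicate 1 highest. *Akh*, the adipokinetic hormone that mobilizes stored fat and sugar, was at 0.607, 0.316 and 1.04 CPM against 2.40, 2.53 and 3.88 CPM, and was called higher by DESeq2. *Hpd* and *hgo*, enzymes of tyrosine breakdown, were at 23.4 to 26.8 CPM and 8.54 to 13.4 CPM in CWOFP and at 42.3 to 59.6 CPM and 17.4 to 25.7 CPM in PWOFC, and stayed below the fold threshold. *Muc68D*, a mucin, was at 152, 12.1 and 86.4 CPM in CWOFP and at 455, 364 and 640 CPM in PWOFC. These are values only, and no explanation was tested.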
